A study of Mus musculus with 8 samples.

Results

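The genes described here were the NF-kB transcription factor subunits (Nfkb1, Nfkb2, Rela, Relb and Rel), the IkB inhibitors (Nfkbia, Nfkbib and Nfkbie) and the atypical nuclear IkB proteins (Nfkbiz and Bcl3). They were chosen by name, with earlier results of these data known, as the rows of the count table whose Ensembl ID carries such a symbol in the GENCODE mouse annotation. All 10 symbols were found among the 55414 IDs of the table. RNA-seq counts came from Paneth cells, epithelial cells of the crypt base that secrete antimicrobial peptides, sorted from the small intestine of wild-type (WT) mice. The series asked how tumor necrosis factor (TNF, an inflammatory cytokine) changes gene expression in these cells. A control group of 4 libraries came from mice given phosphate-buffered saline (PBS), and a treated group of 4 libraries came from mice given TNF, both taken 3 hours after the injection. The study's methods name the C57BL/6J strain and libraries of individual mice, while the labels only number the replicates, so p-values measure the spread between these libraries. The sources used here do not give the age of the mice or the dose of TNF. TNF reached the whole animal, so a direct effect on Paneth cells and one passed on by other cells cannot be told apart. In bulk RNA, fewer cells of a type and less RNA per cell cannot be told apart either.

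As background, NF-kB proteins bind DNA as dimers. In resting cells most dimers are held in the cytoplasm by IkB proteins. In the canonical pathway, TNF receptor signalling activates the IkB kinase (IKK) complex, which marks IkB for degradation and frees dimers such as p50 with RelA. In the non-canonical pathway, the kinase NIK leads to the processing of p100 to p52, the usual partner of RelB. Several subunit and IkB genes are themselves textbook targets of NF-kB, and IkB alpha made anew returns dimers to the cytoplasm.

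The sequences shown are the stretches of member promoters that hold the NF-kB consensus motif, because the members are both parts and known targets of the pathway. RefSeq promoter sequences of build GRCm38.p6 (250 bases before the start and 50 from it on, 300 in all) were matched for 7 of the 10 members, namely Bcl3, Nfkbib, Rel, Nfkbia, Nfkbie, Rela and Nfkb2, of which Nfkb2 had 3. Nfkb1, Relb and Nfkbiz had no entry. On either strand, the consensus occurred in 5 of these 7 members and in 8.46% of all 32851 promoters of this length. Each stretch is written 5′ to 3′ on the strand of its gene, with capitals marking the match. Positions count the start as 1 and the base before it as -1.
Nfkbia: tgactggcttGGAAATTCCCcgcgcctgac
Rel: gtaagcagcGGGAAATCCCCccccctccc
Nfkbie: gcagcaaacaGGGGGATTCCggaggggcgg
Bcl3: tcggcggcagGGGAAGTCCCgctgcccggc
Nfkb2, upstream start: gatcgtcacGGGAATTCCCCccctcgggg
Nfkb2, upstream start, nearer to it: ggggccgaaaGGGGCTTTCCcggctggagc
Nfkb2, between the starts: tccgacggcaGGAATGTCCCcacaaaagcc
Nfkb2, between the starts, further on: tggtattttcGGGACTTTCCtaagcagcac

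The Nfkbia stretch is chr12:55492657-55492686 (minus strand), with the match at -29 to -20. The Rel stretch is chr11:23771042-23771070 (minus strand), with 2 overlapping matches at -92 to -82. For Nfkbie it is chr17:45555584-45555613 (plus strand), with the match at -106 to -97, and for Bcl3 it is chr7:19822734-19822763 (minus strand), with the match just after the start, at 3 to 12. The Nfkb2 stretches lie on the plus strand at chr19:46304689-46304717 (2 overlapping matches at -39 to -29), chr19:46304716-46304745 (-11 to -2), chr19:46305449-46305478 (-236 to -227 of the next start) and chr19:46305695-46305724. The capitals of the last are the form of the motif best known from the immunoglobulin kappa enhancer, and those letters occurred in 0.155% of all these promoters. This match lies at -225 to -216 of the furthest start and, in the window of the start before that, at 11 to 20. The windows of Rela and Nfkbib held no such letters. A match is a description of the letters and not evidence of binding.

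The libraries held 23824717 to 32576077 counts. TNF replicate 4 stood apart. Its scaling factor by the trimmed mean of M values (TMM) was 0.448, against 0.995 to 1.36 in the other 7 libraries, and its log CPM correlated at 0.944 to 0.952 with the other TNF libraries, which correlated at 0.985 or more with each other. CPM are counts scaled to a common library total, and levels below are normalized CPM (by the TMM-adjusted library size) unless called plain CPM (by the library's own total). The labelled cell type was visible in its markers. The 10 Paneth cell markers took 432000 to 490700 plain CPM together in PBS and 435000 to 553700 in TNF. Of 12 immune cell markers, 6 (among them Cd3e, Cd3g, Cd79a, Adgre1 and Itgax) had 0 counts in every library, and the list summed to 13.45 to 15.6 plain CPM in PBS and 15.4 to 31.98 in TNF, with Cd52 higher (1.69 on the log2 scale) and Csf1r called as well without TNF replicate 4 (0.56). Most counts of this list were those of Lyz2, 276 to 312 per PBS library and 266 to 749 per TNF library, highest in TNF replicate 4. Lyz2 was not called (1.37, and 0.24 without TNF replicate 4). Of 7 stromal markers, Col1a2 and Col3a1 had 0 counts throughout, and the sum was 0.234 to 0.614 in PBS and 0.577 to 1.81 in TNF. The stromal marker tested, Vim, had 3 to 18 counts in PBS and 10 to 38 in TNF and passed the filter only through its TNF libraries. Over all genes tested, 23.4% were called higher and 19.6% lower. Among the markers tested, 1 of 7 goblet markers was higher and 2 lower (3 without TNF replicate 4). Of 8 enterocyte markers 2 were lower (4 without TNF replicate 4), as were 4 of 6 stem cell markers. Of 4 enteroendocrine markers 3 were higher (2 without TNF replicate 4). Of 3 tuft markers 0 were called by edgeR, DESeq2 or limma-voom, with 0 at an unadjusted p under 0.05 by each. These calls moved with the scaling. Under library size alone 2 goblet, 4 enterocyte and 3 stem cell markers were lower and 2 enteroendocrine markers higher. In that run 18.1% of all genes were called lower and 5.66% higher. Of the Paneth cell markers, 2 were higher with TMM factors (also by DESeq2 and limma-voom) and 0 by edgeR under library size alone, where 0 were higher at an unadjusted p under 0.05. DESeq2 also called 1 Paneth cell marker lower. The part of these cells in the results below was not tested.

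All members were detected in PBS, and every member would have passed the filter on low counts with the PBS libraries alone. Per kilobase of exon, Nfkbia, which encodes IkB alpha, had the highest level in PBS at 12.2 ± 1.36 normalized CPM per kilobase (SD, n = 4). Rela, encoding the activating subunit p65, followed at 5.90 ± 0.415, and Nfkbib, encoding IkB beta, at 3.42 ± 0.166. These steps exceeded the spread between libraries, since the ranges of Nfkbia and Rela, and of Rela and Nfkbib, did not overlap.

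Nfkb2 (2.71 ± 0.412), Bcl3 (2.48 ± 0.704), Nfkbiz (2.13 ± 0.416), Nfkb1 (2.04 ± 0.282) and Relb (2.03 ± 0.168) came next in normalized CPM per kilobase, and each overlapped its neighbour. Nfkbie, encoding IkB epsilon, and Rel, encoding c-Rel, stood below all others at 0.209 ± 0.0232 and 0.208 ± 0.0380, and overlapped each other. The order rests on the length used. With the longest transcript in place of all exons, Nfkb1 moved from place 7 to place 3 (5.46 normalized CPM per kilobase), and 4 of the 10 members kept their place.

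**Figure D1:**
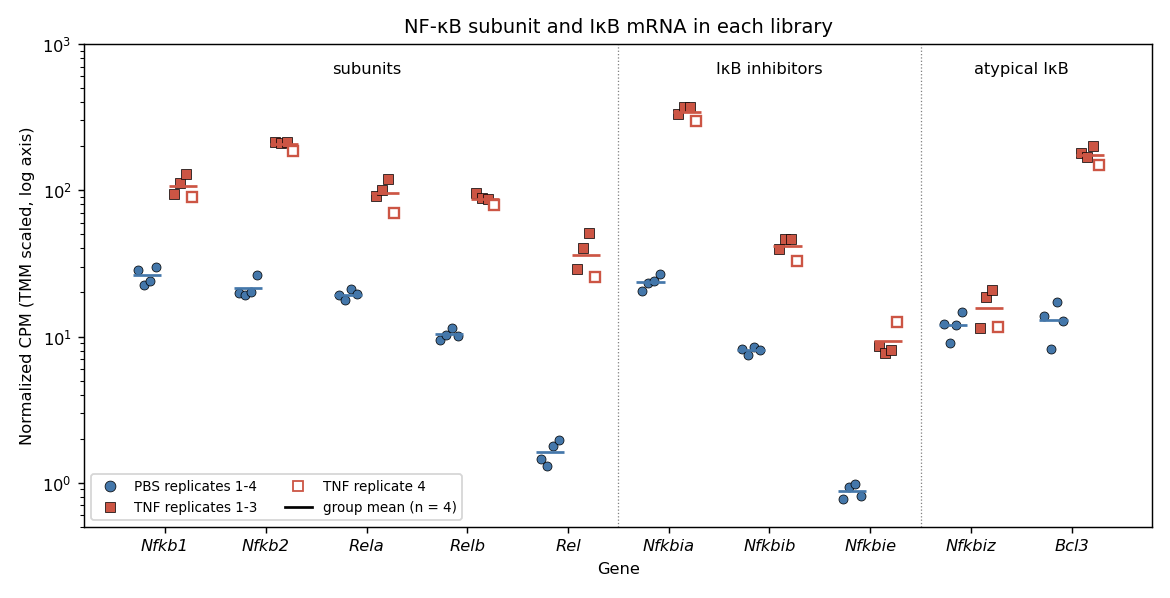
Normalized CPM of each member in each library (log axis), with 4 PBS and 4 TNF libraries per gene and a bar at each group mean. The TNF points lie above all PBS points for every member except Nfkbiz, where the PBS range (8.96 to 14.7) overlaps the TNF range (11.4 to 20.9).

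All 5 subunit genes were higher in TNF. Nfkb1 (ENSMUSG00000028163; GRCm39 chr3:135290264-135397742, minus strand) encodes p105, the precursor of p50. It was at 28.6, 22.4, 23.9 and 29.95 normalized CPM in PBS replicates 1 to 4, and at 94.9, 112, 129.9 and 90.1 in TNF replicates 1 to 4. The groups did not overlap, and the log2 fold change was 2.02 (SE 0.15, edgeR adjusted p 3.85e-06), or 4.07-fold, the smallest among the 9 members called. In plain CPM, TNF replicate 4 (40.4) lay just under the highest PBS library (40.6), so the separation of Nfkb1 depended on the scaling there.

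Rela (ENSMUSG00000024927; chr19:5687493-5698161, plus strand) was at 19.1, 17.7, 21.0 and 19.4 normalized CPM in PBS and at 91.2, 100.4, 120.2 and 70.2 in TNF. The PBS libraries were close together, while in TNF replicate 4 was lowest and replicate 3 highest. The log2 fold change was 2.31 (SE 0.16, edgeR adjusted p 2.15e-06), a 4.95-fold rise.

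Nfkb2 (ENSMUSG00000025225; chr19:46292759-46303812, plus strand) encodes p100, the precursor of p52, which also retains RelB in the cytoplasm. Its values were 19.9, 19.3, 20.25 and 26.3 normalized CPM in PBS and 215, 212, 215 and 186 in TNF. Replicate 4 was the highest PBS library and the lowest TNF library, and the other 3 of each group lay close together. The log2 fold change was 3.27 (SE 0.14, edgeR adjusted p 1.62e-07), or 9.64-fold. Its partner gene Relb (ENSMUSG00000002983; chr7:19339017-19363425, minus strand) was at 9.46, 10.3, 11.5 and 10.1 normalized CPM in PBS and 96.4, 88.2, 87.4 and 78.7 in TNF. Again the groups lay far apart, and the fitted rise was 8.48-fold (95% interval 2.82 to 3.35 on the log2 scale).

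Rel (ENSMUSG00000020275; chr11:23686847-23721264, minus strand), which encodes c-Rel and is best known from lymphocytes, was at 1.45, 1.301, 1.77 and 1.95 normalized CPM in PBS, from 35 to 86 counts a library. In TNF it was at 28.99, 40.0, 50.95 and 25.5, from 297 to 1452 counts. Its level per kilobase was the lowest of the members in PBS, together with Nfkbie, and its change was the largest. The log2 fold change reached 4.48 (SE 0.25, edgeR adjusted p 4.79e-07), a 22.4-fold rise that ranked 80 of 13368 genes by size. Of the immune markers, Cd3e, Cd3g and Cd79a had 0 counts in all 8 libraries, Ptprc had 0 to 10 counts a library, and Cd52 was higher, with 12 to 17 counts in PBS and 22 to 39 in TNF. Their part in the change of Rel was not tested.

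The 3 IkB inhibitor genes rose as well. Nfkbia (ENSMUSG00000021025; chr12:55535332-55539432, minus strand), whose product is broken down and remade during a response, was at 20.5, 23.1, 24.03 and 26.9 normalized CPM in PBS and at 334, 369.5, 371 and 299.5 in TNF. No TNF library came near the PBS range. Nfkbia had a 95% interval of 3.53 to 4.19 around its log2 fold change, 14.5-fold at the estimate.

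Nfkbib (ENSMUSG00000030595; chr7:28457486-28466937, minus strand) was at 8.20, 7.51, 8.43 and 8.10 normalized CPM in PBS and at 39.9, 46.2, 46.2 and 32.7 in TNF. It moved less than Nfkbia. Its log2 fold change was 2.36 (SE 0.13, edgeR adjusted p 5.39e-07), and its 95% interval of 2.06 to 2.66 does not meet that of Nfkbia. Nfkbie (ENSMUSG00000023947; chr17:45866585-45874661, plus strand) was at 0.777, 0.930, 0.985 and 0.814 normalized CPM in PBS and at 8.59, 7.75, 8.14 and 12.5 in TNF. Here replicate 4 was the highest TNF library, unlike for the other members. In plain CPM replicate 4 was the lowest TNF library (5.62, against 7.71 to 9.50), so its place depended on the scaling. The log2 fold change was 3.39 (SE 0.21, edgeR adjusted p 7.62e-07) and rested on 25 to 36 counts per PBS library and 146 to 242 per TNF library.

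The atypical IkB genes differed from each other. Bcl3 (ENSMUSG00000053175; chr7:19541553-19557570, minus strand) encodes a nuclear protein that binds p50 and p52 dimers. It was at 13.7, 8.25, 17.2 and 12.85 normalized CPM in PBS and at 178, 168, 200.6 and 148 in TNF. The groups were far apart, and the log2 fold change was 3.74 (SE 0.22, 95% interval 3.26 to 4.22, edgeR adjusted p 6.42e-07).

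Nfkbiz (ENSMUSG00000035356; chr16:55631738-55659262, minus strand) encodes IkB zeta, a nuclear partner of p50 that is known as an early target of inflammatory signals. Its values were 12.2, 8.96, 12.0 and 14.7 normalized CPM in PBS and 11.4, 18.6, 20.9 and 11.7 in TNF. TNF replicates 2 and 3 lay above every PBS library, and replicates 1 and 4 lay within the PBS range. Nfkbiz was the only member not called. Its log2 fold change was 0.39 (SE 0.22, 95% interval -0.10 to 0.88, edgeR adjusted p 0.179). The interval holds both no change and a rise of 0.88 on the log2 scale at 3 hours, and earlier times were not measured.

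Of the 10 members, 9 were called higher (adjusted p under 0.05) where 23.4% of the 13368 genes tested were called higher, and 0 were called lower where 19.6% were. At an unadjusted p under 0.05, 0 members were lower by edgeR, DESeq2 or limma-voom. The TNF and PBS ranges lay apart, TNF higher, for 9 members and for 22.4% of all genes tested. The fitted rise was at least 4-fold for the 9 called members and for 3.17% of all genes tested. This is a count of estimates and not a test against 4-fold, and under library size alone Nfkb1 (1.65 on the log2 scale) and Rela (1.98) were below it, as Nfkb1 was with no filter beyond 1 count and on leaving out replicate 2 or 3 of either group (1.92 to 1.99). The median log2 fold change of the members was 3.18, against 0.03 over all genes tested.

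Under library size alone, without TMM factors, the share of all genes called higher was 5.66% and the median over all genes was -0.38, and the same 9 members were still called higher with log2 fold changes of 1.65 (Nfkb1) to 4.15 (Rel). Without TNF replicate 4, 9 members were called higher where 26.6% of genes were. Nfkbiz was not called in any alternative run, but its log2 fold change moved from 0.03 (adjusted p 0.967) under library size alone to 0.51 (adjusted p 0.0554) without TNF replicate 4. In that library Nfkbiz was at 11.7 normalized CPM and 5.23 plain CPM.

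**Figure D2:**
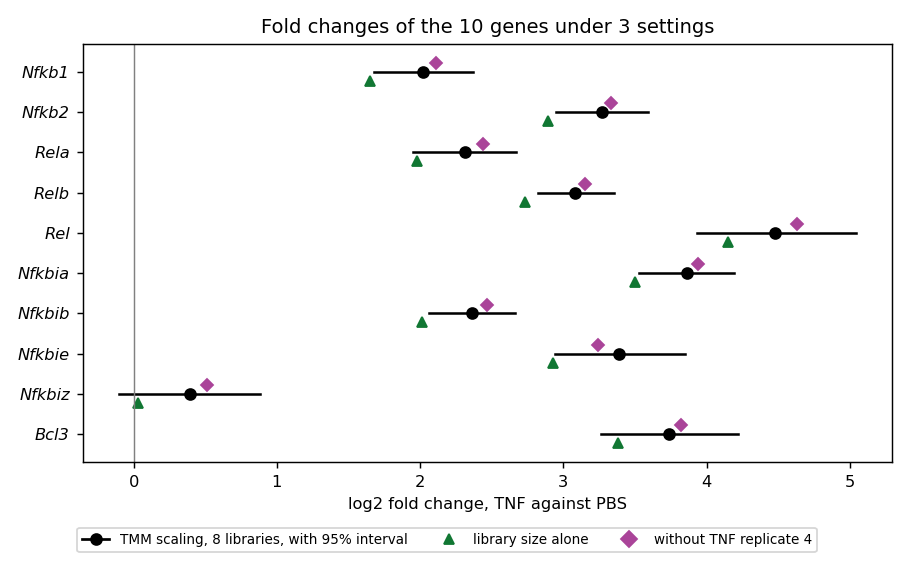
Log2 fold change of each member, TNF against PBS, by edgeR with TMM scaling (circles, with 95% intervals), under library size alone (triangles) and without TNF replicate 4 (diamonds). Intervals of 9 members lie above 0, from Nfkb1 at 2.02 to Rel at 4.48, the interval of Nfkbiz crosses 0, and the triangles lie to the left of every circle.

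The make-up of each class was also described by the share of each gene in the summed level per kilobase of its class, which no scaling of libraries can alter. Rela remained the largest subunit in both groups by mean share, at 45.8% ± 2.18 in PBS and 33.8% ± 3.05 in TNF. Nfkb1 made up 15.8% ± 1.72 in PBS and 9.69% ± 0.718 in TNF. The non-canonical pair had larger shares in TNF, with Nfkb2 at 21.0% ± 2.14 in PBS and 30.8% ± 2.36 in TNF and Relb at 15.8% ± 1.43 and 20.3% ± 2.18.

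Rel made up 1.61% ± 0.186 of the subunit sum in PBS and 5.39% ± 1.08 in TNF. For each of the 5 subunits, the PBS and TNF shares did not overlap, lower in TNF for Rela and Nfkb1 and higher for the others. With the longest transcript as the length, the directions were the same and Nfkb1 took 29.7% ± 2.78 in PBS and 19.4% ± 1.39 in TNF, so the size of its share depends on the length. The ratio of Nfkb2 to Nfkb1 was 1.33 ± 0.138 in PBS and 3.20 ± 0.426 in TNF by all exons, and 0.558 ± 0.0577 and 1.34 ± 0.178 by the longest transcript, a 2.40-fold difference either way.

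Among the inhibitors, Nfkbia made up 77.0% ± 2.10 of the class sum in PBS and 90.0% ± 0.140 in TNF, and Nfkbib 21.7% ± 2.05 and 8.83% ± 0.530, both without overlap. Nfkbie made up 1.33% ± 0.161 and 1.15% ± 0.406, and its groups overlapped. The atypical pair was near balance in PBS, with Bcl3 at 53.3% ± 5.52 of its sum, and lay at 92.3% ± 1.75 Bcl3 in TNF.

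**Figure D3:**
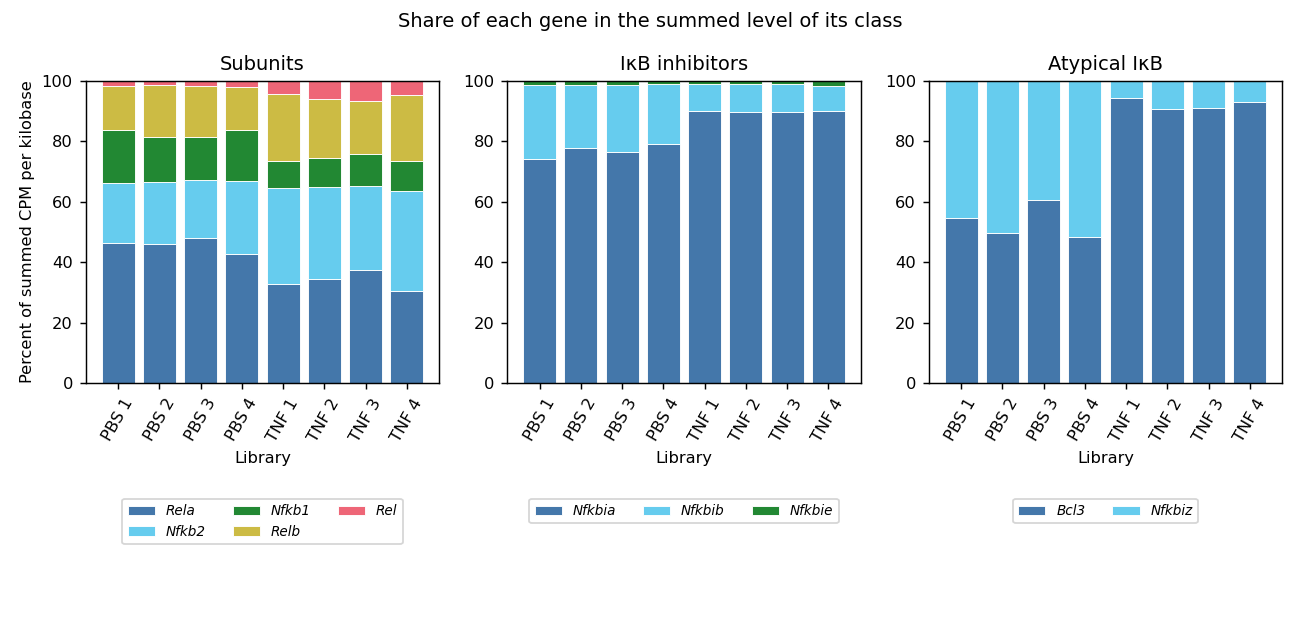
Stacked bars give the percent of each gene in the summed normalized CPM per kilobase of its class in each of the 8 libraries. Nfkbia takes 74.3% to 79.3% of the inhibitor sum in PBS and 89.9% to 90.2% in TNF, and Nfkbiz shrinks from 39.4% or more of the atypical sum in PBS to 9.38% or less in TNF.

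Summed per kilobase, the inhibitors were further apart between the groups than the subunits. The subunit sum was 12.9 ± 0.890 normalized CPM per kilobase in PBS and 85.6 ± 11.2 in TNF, 6.63-fold apart. For the inhibitors the sum was 15.8 ± 1.38 and 197 ± 19.8, 12.5-fold apart. The ratio of inhibitor to subunit sum, which is free of library scaling, was 1.13, 1.299, 1.22 and 1.27 in PBS replicates 1 to 4 and 2.25, 2.39, 2.18 and 2.42 in TNF replicates 1 to 4. Every TNF library lay above every PBS library. By the longest transcript the means were 1.05 and 2.11. The ratio of Nfkbia to Rela was 2.07 ± 0.241 in PBS and 6.21 ± 0.812 in TNF. These are ratios of RNA and say nothing of the proteins, which were not measured.

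The order of levels in TNF differed from that in PBS. Nfkbia still led with 177 ± 17.5 normalized CPM per kilobase. Bcl3 (33.2 ± 4.18), Rela (29.2 ± 6.33) and Nfkb2 (26.2 ± 1.80) followed and overlapped in turn. Next came Nfkbib (17.5 ± 2.72) and Relb (17.2 ± 1.42), then Nfkb1 (8.30 ± 1.41) and Rel (4.69 ± 1.49), which did not overlap each other. Nfkbiz (2.79 ± 0.860) and Nfkbie (2.21 ± 0.529) stood last and overlapped, and Nfkbiz also overlapped Rel.

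The promoter matches can be set beside the changes. The 5 members with a consensus match in a listed promoter had log2 fold changes of 3.27 (Nfkb2) to 4.48 (Rel). Rela and Nfkbib, whose windows held no match, had 2.31 and 2.36. The members without an entry spanned 0.39 (Nfkbiz) to 3.08 (Relb). With so few promoters this is a description, with no test.

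Some members share exon bases with genes on the opposite strand, and it is not given whether strand was used in counting. Psd overlaps 1933 exon bases of Nfkb2, held 61 to 182 counts per PBS library and 239 to 694 per TNF library (10.2% to 15.7% of those of Nfkb2), and changed by 3.00 on the log2 scale (edgeR adjusted p 1.63e-06). The RNA 4833438C02Rik overlaps 1081 exon bases of Nfkb2, held on average 25.0% of its counts in PBS and 8.99% in TNF, and had 1.78. Gm16175 overlaps 314 exon bases of Bcl3, held 5.49% to 8.99% of its counts, and had 3.98. If strand was not used, reads from the shared bases of a pair cannot be assigned to either gene. Nfkbib shares 42 exon bases with Sirt2, which was lower (-0.32) and held 34.4% to 248.5% of the counts of Nfkbib (mean 243% in PBS and 38.0% in TNF). Relb and Bcl3 lie 178127 bases apart on chromosome 7 and share none.

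The genes upstream of the subunits had smaller changes by median. In the list of the IKK and NIK axis (the kinases and adaptors that act on IkB and p100), 7 of 12 tested genes were higher and 2 lower, with a median log2 fold change of 0.58. Birc3, encoding the ubiquitin ligase cIAP2 and also listed among NF-kB targets, was at 8.08 ± 1.92 normalized CPM in PBS and 191 ± 24.4 in TNF (log2 fold change 4.56, SE 0.20, edgeR adjusted p 1.54e-07). The second largest was Traf3, an adaptor that keeps NIK low, at 13.1 ± 4.05 and 24.95 ± 3.17 (0.93, SE 0.20, edgeR adjusted p 0.00328).

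Map3k14, the gene of NIK, was at 5.78 ± 2.17 normalized CPM in PBS and 9.96 ± 0.658 in TNF (log2 fold change 0.77, SE 0.23, edgeR adjusted p 0.0214), and was not called without PBS replicate 2 (0.62, adjusted p 0.0509) or PBS replicate 3 (0.64, adjusted p 0.0584). Of the IKK genes, Chuk (IKK alpha) was higher at 0.67 (SE 0.13, edgeR adjusted p 0.00175), Ikbkg (the regulatory subunit NEMO) lower at -0.43 (SE 0.11, edgeR adjusted p 0.0111), and Ikbkb (IKK beta) at 0.50 (SE 0.18, edgeR adjusted p 0.0441). The Ikbkb call was lost on leaving out any of replicates 1 to 3 of either group (0.40 to 0.52). Under library size alone the axis had 1 gene higher and 2 lower, where 18.1% of all genes were lower, and the calls of Traf3, Map3k14, Chuk and Ikbkb were lost.

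Of 8 genes that ubiquitinate IkB, 3 were higher and 1 lower, with a median log2 fold change of 0.32. The largest was Ube2d3 (without TNF replicate 4, at 0.93 against 1.17 for Fbxw11), an E2 enzyme, at 121 ± 7.32 normalized CPM in PBS and 267.5 ± 77.1 in TNF (1.14, SE 0.19, edgeR adjusted p 0.000619). The E3 receptor Fbxw11 was at 31.9 ± 0.979 and 66.8 ± 10.6 (1.07, SE 0.13, edgeR adjusted p 7.64e-05). Its paralog Btrc, named after its values were seen, was the gene lower (-0.71, edgeR adjusted p 0.00302). Under library size alone Btrc was the only call, with Ube2d3 at 0.65 and Fbxw11 at 0.72.

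Other regulators of the subunits numbered 7, with 1 higher, 0 lower (0 at an unadjusted p under 0.05 by edgeR, DESeq2 or limma-voom) and a median of 0.14. The gene called was Nfkbid, a further atypical IkB, at 0.477 ± 0.111 normalized CPM in PBS and 1.301 ± 0.986 in TNF, with 10 to 21 and 17 to 32 counts. Its log2 fold change, 1.33 (SE 0.47, edgeR adjusted p 0.0410), was 0.80 (adjusted p 0.0663) without TNF replicate 4. Its call was also lost on leaving out any PBS replicate or TNF replicate 3, though the log2 fold change stayed at 1.25 to 1.48.

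Among 10 nuclear cofactors, 1 was higher and 1 lower, with a median of 0.07. Ep300, an acetyltransferase, was lower (-0.54, SE 0.17, edgeR adjusted p 0.0258), though not called without TNF replicate 3 (-0.49, adjusted p 0.0672). Akirin2 was at -0.18 (SE 0.14, edgeR adjusted p 0.326). By contrast with the members, these 4 lists had medians between 0.07 and 0.58. Under library size alone, where the median of all genes was -0.38, their medians were 0.16 for the axis, -0.11 for IkB ubiquitination, -0.21 for the other regulators and -0.29 for the cofactors. For the scale of the comparison, 2 of 8 housekeeping genes were higher and 1 lower, with a median of 0.31. Under library size alone 0 were called either way by edgeR (2 higher and 1 lower at an unadjusted p under 0.05), with a median of -0.14.

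The last list held NF-kB target genes. Of 23 NF-kB target genes outside the member set, 15 were tested, and 14 of them were higher and 0 lower (0 at an unadjusted p under 0.05 by edgeR, DESeq2 or limma-voom). Of the 15, 6 passed the filter only with their TNF libraries, a route that favours genes higher in TNF. Of the other 9, 8 were higher, with a median log2 fold change of 3.24. For those 9 the median was 2.7 under library size alone. The gene of the 9 not called was Bcl2l1 (-0.16, edgeR adjusted p 0.577).

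Tnfaip3, encoding the deubiquitinase A20, a feedback inhibitor of IKK signalling, was at 3.47 ± 1.03 normalized CPM in PBS and 54.6 ± 3.83 in TNF (3.96, SE 0.19, edgeR adjusted p 2.72e-07). Cxcl1, a neutrophil chemokine, had 0 counts in every PBS library and 30 to 94 in TNF, at least 27.3-fold higher than the floor of 3 counts per PBS library allows. On the same floor the costimulatory receptor gene Cd40, with 23 to 49 counts in TNF, was at least 16.6-fold higher. Ccl2, Il6 and Ptgs2 had 0 counts in all 8 libraries.

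**Figure D4:**
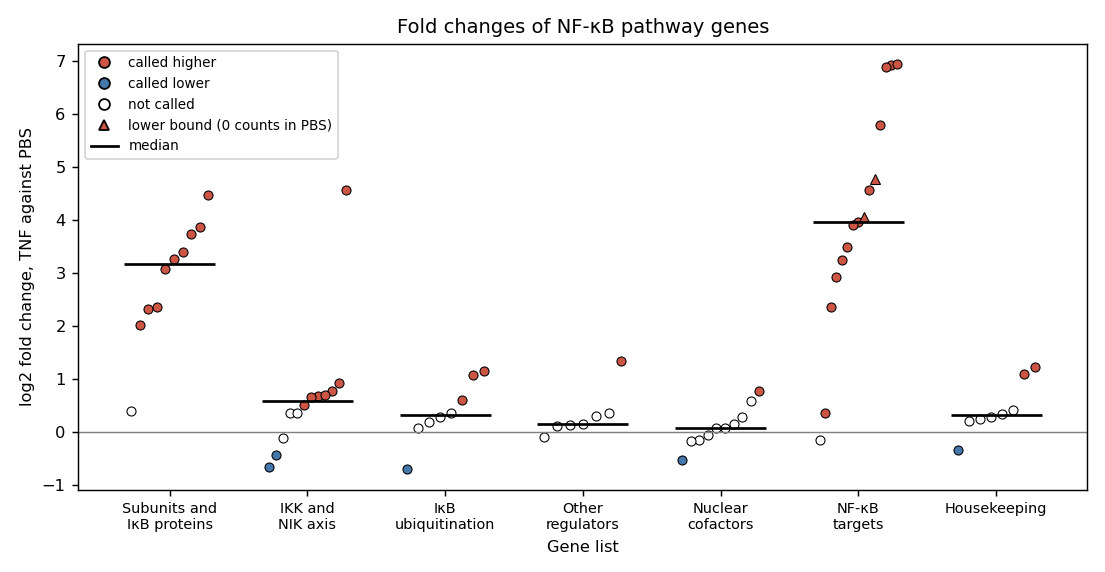
Log2 fold change (TNF against PBS) of each tested gene in 7 lists, where filled points are called genes, triangles are lower bounds for genes with 0 counts in PBS, and bars are medians. The members have a median of 3.18 and the 4 lists beside them medians of 0.07 to 0.58, while the bar of the NF-kB targets includes 6 genes that passed the filter only through TNF and is 3.24 without them.

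The genes nearest to 4 of the members were sought over the 8 libraries among 8488 genes with a mean of at least 5 CPM, by the root mean square difference of log2 CPM after centring on PBS. Nearest to Nfkb1 were Gpcpd1 (0.0952) and Stat3 (0.0966), a signal transducer at 60.2 normalized CPM in PBS and 244 in TNF. For Relb they were Lrrtm2 (0.118) and 4930523C07Rik (0.181). The genes closest to Nfkbia were Arid5a (0.152) and Zfp36 (0.187), both known to encode proteins that act on inflammatory mRNAs, with log2 fold changes of 3.85 and 3.69. For Nfkbiz they were Sgms2 (0.146) and Nrp2 (0.167), both at 0.45.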

How the data were processed

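The authors deposited raw counts per Ensembl gene ID, 1 column per library and no normalization. The submitters' processing notes name FastQC 0.12, STAR 2.7.10a, DESeq2 and the mm39 build without a role. Not given in the sources used here are the counter, its annotation, and its treatment of strand and of reads shared by genes. Per the labels, the kits were Aurum Total RNA Mini (Bio-Rad) and TruSeq Stranded mRNA. Symbols, GRCm39 positions and lengths came from GENCODE M39, which matched 54749 of 55414 IDs.

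All genes were tested in R 4.3.3 with edgeR 4.0.16 (quasi-likelihood F test, TMM scaling, filterByExpr, no covariate, Benjamini-Hochberg adjustment over 13368 genes, called at an adjusted p under 0.05). Alternatives were RLE scaling, library size alone, TMM without Defa genes, 2 other filters (1 count in all, or 1 CPM in 4 libraries), DESeq2 1.42.0, limma-voom (limma 3.58.1), a replicate block, an adjusted p under 0.01, the longest transcript as length, and leaving out each library. Levels per kilobase used the union of exons. A check within groups for a library deposited more than once found none (lowest chi-square per degree of freedom 8.77). Tested on simulated data of 13194 genes, the TNF against PBS fit found 165 of 200 genes given a change (82.5%), and 4 of its calls (2.37%) were wrong. The simulated libraries were all drawn from the mean PBS profile, with none set apart like TNF replicate 4. Far fewer genes changed in them than were called in the data (3122 higher and 2625 lower). These rates therefore do not measure the error of the fit on the real libraries. Where a gene had 0 counts in PBS, 3 counts per library were taken as the floor, which covers counting error only.

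The members and gene lists were chosen with earlier results of these data known, and no test was made over a list. Of the housekeeping genes, Hprt was not matched by symbol. Named were all members, the 2 called genes with the largest absolute log2 fold change in each of the 5 pathway lists, the genes Nfkbid, Map3k14, Chuk, Ikbkb, Ikbkg, Akirin2 and Tnfaip3, and the 2 genes nearest to Nfkb1, Relb, Nfkbia and Nfkbiz (log2 CPM, prior count 2). A gene that this rule names among the nuclear cofactors is not reported here. Other genes named were chosen after their values were seen.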

Additional observations from a re-analysis of the deposited data

Results flagged for a closer look

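Nfkb2 was the only member flagged, in both groups, in normalized CPM, the scale checked. Each of the 10 members was checked in PBS and in TNF for a library whose gap to the nearest other exceeded Dixon's 95% critical value for 4 samples, and 2 of the 20 groups had such a library. Chance gives about 1 in 20. Nfkb2 in PBS replicate 4 was at 26.3 normalized CPM, against 19.3 to 20.25 in the other PBS libraries (35.67 against 20.3 to 24.95 in plain CPM). In TNF replicate 4, the library with the scaling factor of 0.448, Nfkb2 was at 185.6 normalized CPM, against 212 to 215 in the other TNF libraries. In plain CPM it was at 83.16 there, against 210.6 to 238.2. The rise of Nfkb2 was called without either library.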

How the results depend on the processing

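Under all 16 alternative fits and at an adjusted p under 0.01, 9 members were called higher and 0 lower, with the same direction for every member. The highest adjusted p of a called member was 0.00472 (Nfkb1, library size alone). Log2 fold changes ranged from 1.65 to 2.11 for Nfkb1, 1.98 to 2.44 for Rela, 2.01 to 2.47 for Nfkbib, 2.73 to 3.15 for Relb, 2.89 to 3.35 for Nfkb2, 2.93 to 3.45 for Nfkbie, 3.38 to 3.90 for Bcl3, 3.50 to 3.94 for Nfkbia, 4.15 to 4.63 for Rel and 0.03 to 0.51 for Nfkbiz. Library size alone, which moved the median of all genes from 0.03 to -0.38, lowered the count of genes called higher from 3122 to 757 and the calls in either direction from 9 to 3 in the IKK and NIK axis, from 4 to 1 among IkB ubiquitination genes, from 1 to 0 among other regulators and from 2 to 1 among nuclear cofactors. The cause was not tested. At an adjusted p under 0.01, 1691 of 2625 genes remained called lower, with 0 other regulators and 1 nuclear cofactor. Nfkbid, the only other regulator called, was also lost with limma-voom and, because it was not tested there, with the filter of 1 CPM in 4 libraries (0 calls each). Leaving out each library gave 0 to 1 calls for that list and 1 to 3 for the cofactors. Ikbkb was not called either with no filter beyond 1 count (0.46). NF-kB targets had 12 (at least 1 CPM in 4 libraries) to 15 (without TNF replicate 4) calls over the alternatives, and 14 in the report. Ordered by the longest transcript, 4 of 10 members kept their place in PBS. Same-numbered PBS and TNF libraries did not deviate together (r from -0.144 to 0.0663), so the numbers were not taken to pair them, and with the replicate block 9 members were again called higher. Rel and Nfkbie in PBS rested on the fewest counts (35 to 86 and 25 to 36 per library).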
